A study of Homo sapiens with 6 samples.

Results

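The 6 genes described here, MT-CYB, MT-CO1, MT-CO2, MT-CO3, MT-ATP6 and MT-ATP8, are the subunits of respiratory complexes III, IV and V that are encoded by mitochondrial DNA (mtDNA). They were chosen by gene symbol and were all found among the 12982 genes of the deposited table, which also holds the 7 complex I subunits of mtDNA. RNA sequencing was carried out on wild-type SW480 cells, an established human colon adenocarcinoma cell line, after 24 h with DMSO, the solvent control, or with MPM-1, a fluorescent probe that accumulates in mitochondria and that the sample labels call WT4. There were 3 libraries per treatment, all from the same line, and nothing in the labels says whether they came from separate cultures, so the p-values measure only the spread between these libraries. The dose of MPM-1 for this experiment is not given in the sources used here.

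Mitochondria keep a small circular genome that encodes a core of the respiratory chain, while most subunits are encoded in the nucleus and imported. Complex III passes electrons from ubiquinol to cytochrome c, complex IV passes them on to oxygen, and complex V (ATP synthase) uses the resulting proton gradient to make ATP. The 6 genes lie on the strand whose long precursor RNA, the heavy-strand transcript, is cut mainly at the tRNAs between the genes. The mRNAs then receive short poly(A) tails. MT-CYB encodes cytochrome b, the subunit of complex III that holds its quinone sites. MT-CO1 and MT-CO2 encode the subunits of complex IV that carry its heme and copper centers, and MT-CO3 encodes the third subunit of its core. MT-ATP6 encodes the subunit of complex V that forms the proton path beside the rotating ring, and MT-ATP8 encodes a small membrane subunit next to it.

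In GENCODE release 29 (GRCh38, chromosome M, plus strand), MT-CO1 (ENSG00000198804) lies at 5904 to 7445, MT-CO2 (ENSG00000198712) at 7586 to 8269, MT-ATP8 (ENSG00000228253) at 8366 to 8572, MT-ATP6 (ENSG00000198899) at 8527 to 9207, MT-CO3 (ENSG00000198938) at 9207 to 9990 and MT-CYB (ENSG00000198727) at 14747 to 15887. Each is a gene without introns. MT-ATP8 and MT-ATP6 share 46 bases, which are 22.2% of MT-ATP8 and 6.75% of MT-ATP6, so counts in that stretch cannot be assigned to either gene alone. The sequences below, read from the GENCODE transcripts, show the shared bases in capitals, in the whole of MT-ATP8 (chrM:8366-8572) and in the start of MT-ATP6 (chrM:8527-8616).
MT-ATP8: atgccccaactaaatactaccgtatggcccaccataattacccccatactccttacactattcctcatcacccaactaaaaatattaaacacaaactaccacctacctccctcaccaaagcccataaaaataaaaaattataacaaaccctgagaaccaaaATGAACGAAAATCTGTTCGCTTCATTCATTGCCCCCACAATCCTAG
MT-ATP6: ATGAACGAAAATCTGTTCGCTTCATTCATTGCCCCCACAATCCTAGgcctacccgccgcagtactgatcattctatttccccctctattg

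MT-ATP6 and MT-CO3 in turn share 1 base, the last of MT-ATP6. The genes also differ in how they end, which is shown because the poly(A) tail completes the stop codon in some of them. The last 30 bases of each gene follow, with the bases that belong to the annotated stop in capitals.
MT-CYB: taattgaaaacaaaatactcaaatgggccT
MT-CO1: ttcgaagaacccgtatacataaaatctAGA
MT-CO2: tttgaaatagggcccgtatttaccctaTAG
MT-CO3: tgtatgtctccatctattgatgagggtctT
MT-ATP6: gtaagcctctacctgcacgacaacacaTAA
MT-ATP8: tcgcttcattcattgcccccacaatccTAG

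MT-CYB and MT-CO3 end with a single T after the last whole codon, and the other 4 genes carry a whole annotated stop codon.

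The total of all counts was 32095456 to 40269820 per DMSO library and 31733667 to 35403841 per MPM-1 library. CPM below is the usual count-per-million scale after TMM scaling of library sizes, and adjusted p-values are those of edgeR (quasi-likelihood F-test, Benjamini-Hochberg correction across all 12982 genes). A gene is called lower or higher where its adjusted p-value is below 0.05. The stricter call lowers this limit to 0.01 and also requires that the level at least doubled or fell to 50% or less, which is 1 on the log2 scale. Of 10 markers of colorectal epithelium, 9 were in the table, with a summed level of 8364 to 9748 CPM in DMSO and 12227 to 13761 CPM after MPM-1. The keratins KRT8, KRT18 and KRT19 and the adhesion protein CDH1 were higher, EPCAM was not called, and CDX2 (log2 fold change -2.20), KRT20 (-2.03), CDX1 (-0.98) and VIL1 (-0.88) were lower. Of the markers of other cell types, 2 of 6 for fibroblasts (5.47 CPM or less in sum), 1 of 6 for leukocytes (9.84 CPM or less) and 0 of 4 for endothelium were in the table. Libraries of the same treatment differed by more than counting error (chi-square per gene of 15.4 to 33.2), and each was counted as a replicate.

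All 6 genes were lower after MPM-1. Together they took 5.17%, 5.80% and 5.67% of all counts in DMSO replicates 1, 2 and 3, and 1.08%, 1.30% and 1.32% in MPM-1 replicates 1, 2 and 3. The mean share was thus 4.49-fold lower after MPM-1. These shares are of unscaled counts, whereas the log2 fold changes are of TMM-scaled counts. The mean TMM factor was 1.05 in DMSO and 0.95 after MPM-1, so the 2 kinds of size differ. All 6 passed the call (lower genes made up 28.8% of all genes tested) and the stricter call (8.75%), and in all 6 every MPM-1 library lay below every DMSO library (33.3% of all genes tested, while 31% had every MPM-1 library above). Their median log2 fold change was -1.91, against -0.026 over all genes. In bulk RNA, fewer cells carrying a transcript and less of it per cell cannot be told apart, and a CPM is a share of the counted RNA, not an amount per cell. The libraries were made with an mRNA library kit, and how well it captured mRNAs with short poly(A) tails was not tested. A change in capture cannot be told apart from a change in level, also where these genes are set beside nuclear genes.

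**Figure D1:**
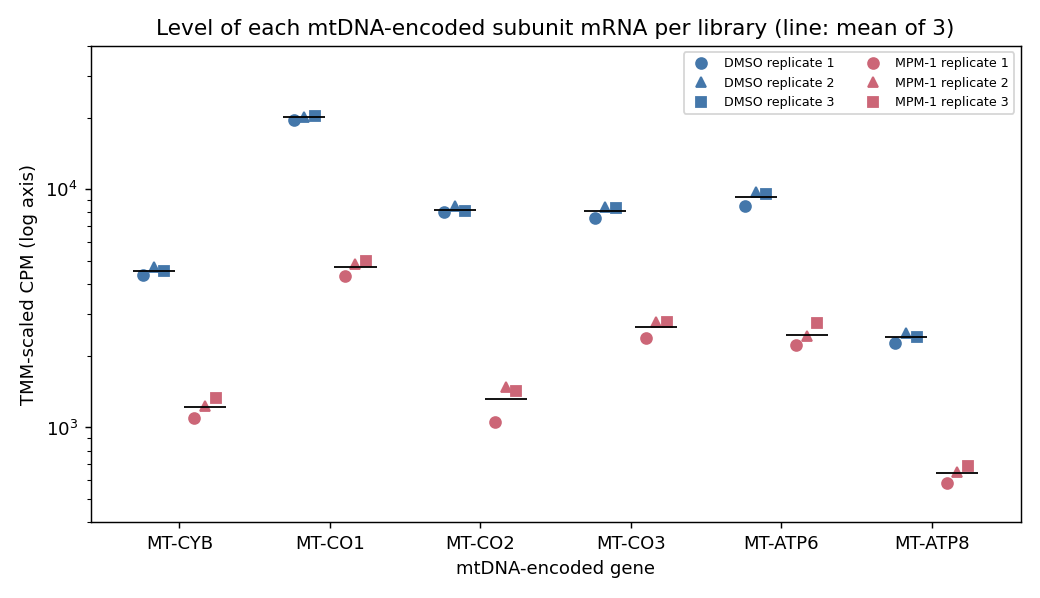
TMM-scaled CPM of each of the 6 genes (log axis) in the 3 DMSO and 3 MPM-1 libraries, with the marker shape giving the replicate and the line the mean of 3. No gene has an MPM-1 library that reaches its DMSO libraries, and replicate 1 is the lowest of its treatment in each gene.

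In complex III, MT-CYB stood at 4378, 4721 and 4549 CPM in the DMSO libraries and at 1098, 1227 and 1327 CPM in the MPM-1 libraries. The treatments did not overlap, and the MPM-1 mean was 26.8% of the DMSO mean. On the log2 scale the change was -1.90 with a standard error of 0.079 (adjusted p = 3.90e-07).

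In complex IV, MT-CO1 was the most abundant of the 6 by counts, with 19575, 20157 and 20401 CPM in DMSO and 4336, 4858 and 5018 CPM after MPM-1. Its spread within a treatment was small beside the difference, since the means were 20044 ± 424 and 4737 ± 357 CPM (SD, n = 3 libraries each). For MT-CO1 the log2 fold change of -2.08 had a standard error of 0.065 and an adjusted p of 6.62e-08, the smallest adjusted p-value of the 6.

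MT-CO2 was at 8061, 8484 and 8130 CPM in DMSO and at 1052, 1472 and 1426 CPM after MPM-1. It had the deepest fall of the 6, 6.25-fold, and MPM-1 replicate 1 stood below the other two MPM-1 libraries. Its change on the log2 scale was -2.64 with a standard error of 0.12 (adjusted p = 5.01e-07), or -2.49 without MPM-1 replicate 1.

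MT-CO3 was at 7552, 8448 and 8325 CPM in DMSO and at 2367, 2763 and 2769 CPM after MPM-1. It had the shallowest fall of the 6, 3.08-fold, again without overlap between treatments. Its change on the log2 scale was -1.62 with a standard error of 0.078 (adjusted p = 6.14e-07).

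In complex V, MT-ATP6 was at 8493, 9785 and 9585 CPM in DMSO and at 2215, 2419 and 2735 CPM after MPM-1. MT-ATP8 was at 2260, 2500 and 2401 CPM in DMSO and at 585, 653 and 689 CPM after MPM-1. The 2 overlapping genes had close fold changes, at log2 -1.92 (standard error 0.089, adjusted p = 5.66e-07) for MT-ATP6 and -1.89 (standard error 0.079, adjusted p = 4.07e-07) for MT-ATP8.

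With counts this high, counting error was small. The fewest counts were the 17836 of MT-ATP8 in MPM-1 replicate 1, where 1 SD of counting error is 0.749%, and the most were the 870519 of MT-CO1 in DMSO replicate 2, where it is 0.107%. Reads that fit a nuclear copy of mtDNA limit the values further. GENCODE lists 179 copies of these 6 genes in the nuclear genome, of which 4 match over 90% of a gene's length at over 95% identity, namely MTCO1P12 (98.7%), MTATP6P1 (98.5%), MTCO2P12 (98.2%) and MTATP8P1 (97.6%), all on chromosome 1. For MT-CO3, MTCO3P12, also on chromosome 1, matches over 69.8% of the gene's length at 98.2% identity. Of the 179 copies, 0 were among the genes of the deposited table, so their levels were not analysed here. How reads that fit both a copy and a gene of mtDNA were counted is not given in the sources used here. It is likewise not given whether strand was used, so RNA from the opposite mtDNA strand cannot be told apart from these genes.

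Levels were compared between genes as FPKM (fragments scaled to gene length and library depth) as the authors deposited them. Within a library, count divided by FPKM and by the GENCODE length of the gene gave the same depth for all 6 genes to within 0.0030%, so the lengths behind the FPKM are those of GENCODE. In DMSO the order was MT-ATP6 (13936 ± 1297 FPKM, SD, n = 3 libraries), MT-CO1 (13273 ± 522), MT-CO2 (12278 ± 528), MT-ATP8 (11779 ± 806), MT-CO3 (10565 ± 828) and MT-CYB (4072 ± 225). The ranges of neighbours in this order overlapped except for the last step, where MT-CO3 was 2.59-fold above MT-CYB. Within single libraries the order held in 3 of 3 for each step but the first, where MT-ATP6 was above MT-CO1 in 2 of 3. MT-ATP6 and MT-ATP8 are read from the same mRNA, and MT-ATP8 is only 207 bases long, 46 of them shared with MT-ATP6. Their separate places in this order and in that after MPM-1 thus describe FPKM on annotated length, not separate transcript levels.

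After MPM-1 the order of levels was MT-ATP6 (3313 ± 376 FPKM), MT-CO3 (3086 ± 318), MT-ATP8 (2851 ± 267), MT-CO1 (2822 ± 251), MT-CO2 (1771 ± 338) and MT-CYB (980 ± 102). The ranges of the first 4 overlapped from neighbour to neighbour, while MT-CO1 lay above MT-CO2 and MT-CO2 above MT-CYB without overlap. Among all genes by FPKM, MT-ATP6 held rank 2, 1 and 1 in the DMSO libraries and rank 19, 11 and 7 in the MPM-1 libraries. MT-CO2 went from rank 3 in each DMSO library to ranks 75, 44 and 49, and MT-CYB from ranks 16, 12 and 12 to ranks 99, 89 and 84.

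The fall ranged from 3.08-fold in MT-CO3 to 6.25-fold in MT-CO2. To compare them without any scaling between libraries, the log2 ratio of the counts of 2 genes was taken within each library, for all 15 pairs. In 12 of the 15 pairs the 3 MPM-1 ratios lay apart from the 3 DMSO ratios, which was also so in 63.1% of all pairs of genes that had counts in every library. The sizes of the shifts are therefore given rather than their number. An exact permutation test (two-sided) gave p = 0.1 for each of these, the smallest that 3 libraries against 3 allow, and 0.125 after Benjamini-Hochberg adjustment over the 15 pairs, so no pair could pass a threshold of 0.05.

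The largest shift was between 2 subunits of complex IV. The log2 ratio of MT-CO2 to MT-CO3 counts was 0.094, 0.0061 and -0.034 in the DMSO libraries and -1.17, -0.91 and -0.96 in the MPM-1 libraries. The mean moved from 0.022 ± 0.066 to -1.01 ± 0.14 (SD, n = 3 libraries each), a difference of -1.03 and thus a ratio after MPM-1 that was 0.488 of the ratio in DMSO. Between MT-CO1 and MT-CO2 the log2 ratio rose by 0.58, from 1.29 ± 0.040 to 1.86 ± 0.17. Between MT-CO1 and MT-CO3 it moved by -0.46, from 1.31 ± 0.061 to 0.85 ± 0.030. Per length, MT-CO1 took 36.8% ± 0.618 of the FPKM of the 3 complex IV genes in DMSO and 36.8% ± 1.24 after MPM-1. MT-CO2 took 34.0% ± 0.667 and 22.9% ± 1.83, and MT-CO3 took 29.2% ± 0.855 and 40.2% ± 0.641.

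**Figure D2:**
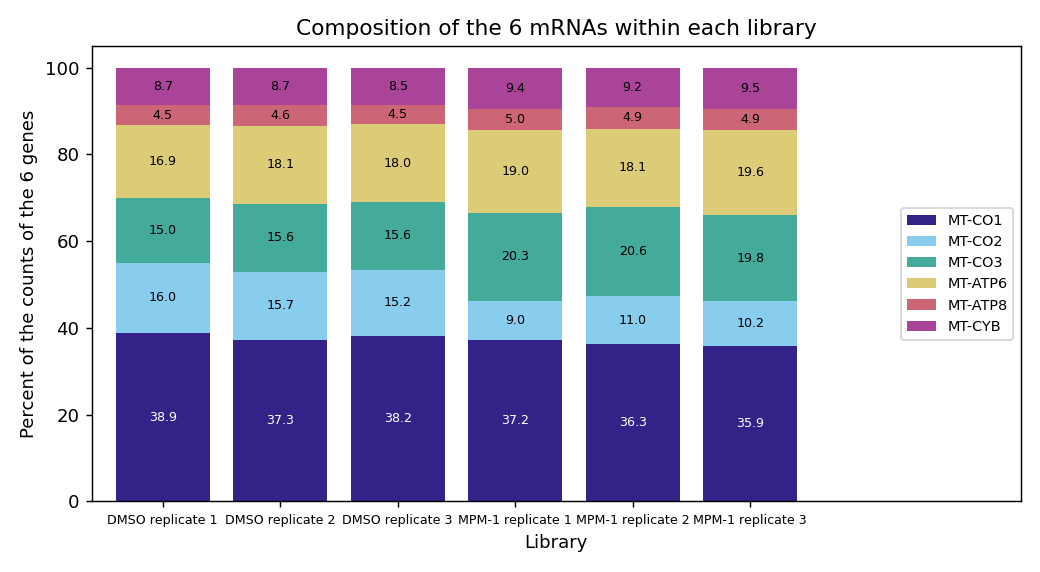
Percent of the summed counts of the 6 genes that each gene took, by library, as stacked bars. MT-CO2 takes a mean of 15.6% in the DMSO libraries and 10.1% in the MPM-1 libraries, while MT-CO3 takes 15.4% and 20.3%.

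The 3 pairs whose ratios overlapped between treatments were those among MT-CYB, MT-ATP6 and MT-ATP8. Their log2 ratios moved by 0.016 (MT-CYB to MT-ATP6, exact permutation p = 0.7), by -0.010 (MT-CYB to MT-ATP8, p = 0.5 in the same permutation test) and by -0.026 (MT-ATP6 to MT-ATP8, p = 0.6 in the same permutation test). MT-ATP6 and MT-ATP8 are read from 1 mRNA and share bases, as printed above. MT-CYB shares no bases with them and lies much further along the strand, with several complex I genes between them. These tests cannot show that the 3 genes changed alike. The differences in log2 ratio were smaller than the larger SD of the ratio within a treatment (0.063, 0.021 and 0.051). The pairs were picked because their ratios overlapped, so this is a description and not a sign of an equal change.

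The fold changes were set beside properties of the genes that had no part in choosing them. MT-CYB and MT-CO3, which end on a single T, had log2 fold changes of -1.90 and -1.62, and the 4 genes with a whole stop codon had values from -2.64 to -1.89. These values overlap in range. Across the 6 genes, which share libraries and a common precursor RNA, the log2 fold change had a Pearson correlation of -0.17 with GC content (39.6% to 46.6%), of -0.037 with length (207 to 1542 bases) and of 0.33 with the distance from MT-TF, the first gene of the heavy-strand transcript. The shallowest and the deepest values of the 6 were not in the first or the last of them along the transcript but in MT-CO3 and MT-CO2, which are separated only by the complex V genes and 1 tRNA. The Spearman values over the same 6 genes were 0.26 for GC content, -0.20 for length and 0.66 for distance, so for GC content the sign depended on the measure.

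**Figure D3:**
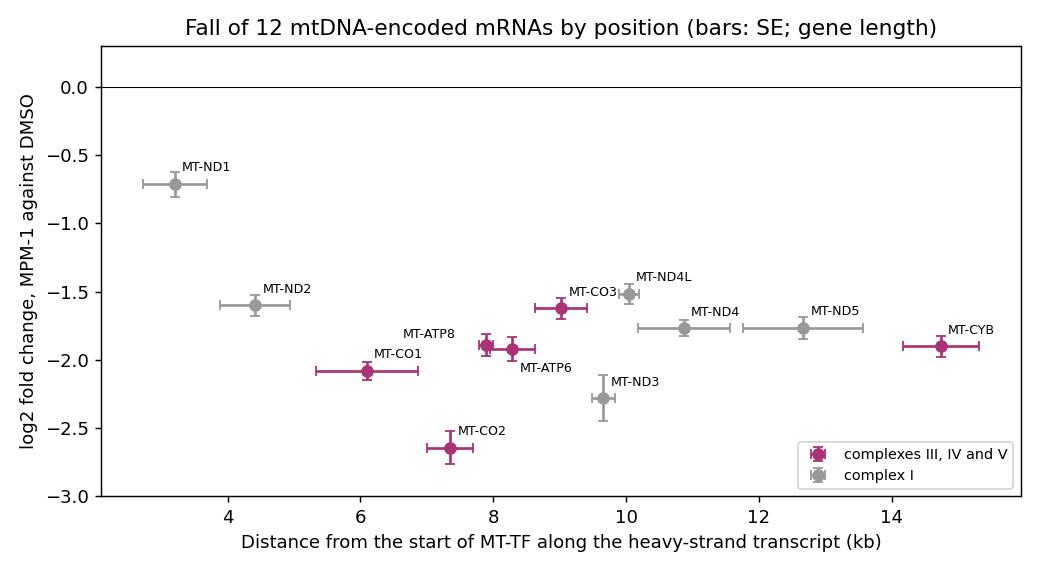
Log2 fold change (MPM-1 against DMSO) of the 12 mRNAs on the heavy-strand transcript against the distance of the gene's middle from the start of MT-TF in kb; vertical bars are standard errors and horizontal bars the gene's length. The 6 genes of complexes III, IV and V lie between -2.64 and -1.62, and the complex I gene nearest to MT-TF, MT-ND1, is at -0.71.

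The other mRNAs of mtDNA were lower too. The 7 complex I genes, MT-ND1 to MT-ND6 with MT-ND4L, were all called lower, 6 of them by the stricter call, with a median log2 fold change of -1.77. MT-ND1, at -0.71, had a smaller fall than any of the 6 genes, and MT-ND6, the mRNA of the opposite strand, had a log2 fold change of -2.65, next to that of MT-CO2. MT-ND3 was at -2.28, MT-ND4 at -1.77, MT-ND5 at -1.77, MT-ND2 at -1.60 and MT-ND4L at -1.52. The 6 genes made up 63.4% ± 0.877 of the counts of all mtDNA mRNAs in DMSO and 56.7% ± 1.15 after MPM-1 (SD, n = 3 libraries each).

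Among abundant genes, those with a mean of at least 1000 CPM over both treatments, the 6 genes were among the 8 with the deepest falls. This limit was chosen after the values were seen and rests on the levels that are compared, so the order within it is a description, not a test. MT-ATP8 met the limit only through its DMSO level (mean of 2387 CPM, against 643 CPM after MPM-1). MT-ND6 (log2 fold change -2.65) and MT-ND3 (-2.28) did not meet it. The group held 117 genes with a median log2 fold change of 0.30, and 10 of them were encoded by mtDNA. MT-CO2, MT-CO1, MT-ATP6, MT-CYB and MT-ATP8 were the first 5 in order of fall, and MT-CO3 was the eighth. The nuclear gene with the deepest fall in that group was PTMA, which encodes prothymosin alpha, at -0.98. Over all 12982 genes, ordered from the deepest fall, the 6 were further down. MT-CO2, MT-CO1, MT-ATP6, MT-CYB, MT-ATP8 and MT-CO3 held ranks 113, 263, 335, 346, 347 and 510.

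The log2 fold changes of the nuclear genes for the same complexes were far smaller. For complexes III, IV and V, 40 of 43 listed nuclear genes were measured, here called subunit genes. The list includes ATP5IF1, which encodes an inhibitor of complex V rather than a structural subunit. Of the 40 genes, 24 were lower (28.8% of all genes tested were), 1, ATP5IF1, was higher (27.7%) and 15 were not called. None passed the stricter call in either direction, which among all genes 8.75% passed as lower and 5.58% as higher. Their median log2 fold change was -0.33. The deepest fall among them was -0.86, while the shallowest of the 6 mtDNA genes was -1.62.

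The counts for each complex stand beside 28.8% lower and 27.7% higher among all genes. For complex III, 8 of 9 nuclear subunit genes were lower (median -0.50), beside -1.90 for MT-CYB. The deepest falls were in CYC1, which encodes cytochrome c1 and went from 353 ± 30.5 to 196 ± 1.33 CPM (log2 fold change -0.85), in UQCRC1, a core protein (-0.54), and in UQCR11, a small subunit (-0.53). For complex IV, 5 of 13 were lower (median -0.16), with COX8A at -0.65, COX7B at -0.41 and COX6C at -0.38, beside -2.64 to -1.62 for the mtDNA genes. The number lower for complex IV was 9 with scaling by library size alone and also 9 with limma on FPKM, where most genes shift down. COX4I1, the subunit at the regulatory site of complex IV, stood at 432 ± 29.9 and 396 ± 16.8 CPM and was not called (adjusted p = 0.188). For complex V, 11 of 18 were lower and 1 was higher (median -0.41). The deepest falls were in ATP5F1D (-0.86), a subunit of the central stalk, in ATP5MC1 (-0.82), which encodes the c subunit of the ring, and in ATP5MF (-0.79), a membrane subunit. The gene that rose was ATP5IF1 (0.33), the inhibitor of ATP hydrolysis by complex V, but this call was lost with scaling by library size alone, with limma on FPKM and without DMSO replicate 2.

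**Figure D4:**
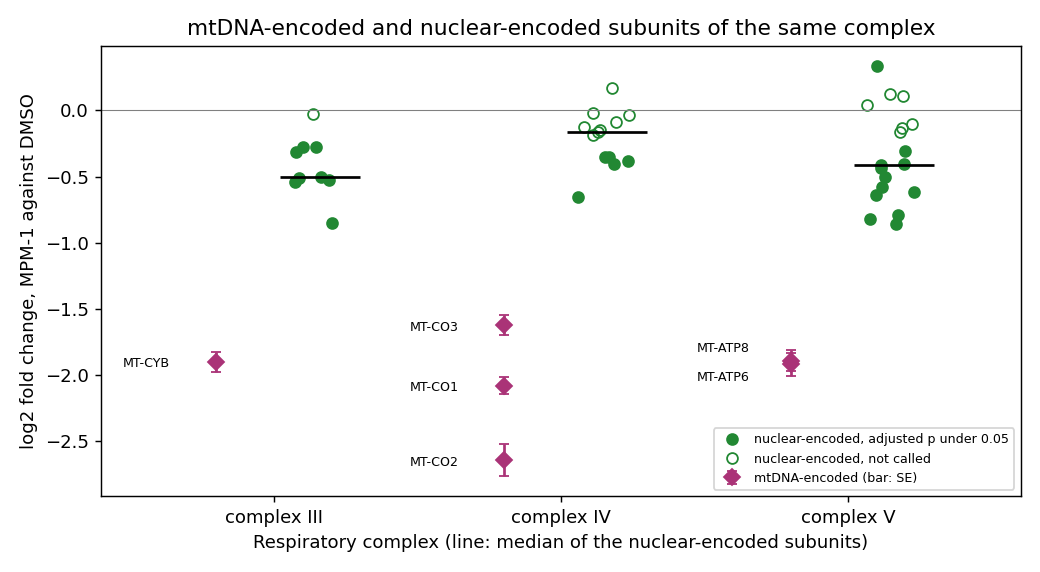
Log2 fold change (MPM-1 against DMSO) of the mtDNA-encoded (diamonds, with standard errors) and nuclear-encoded subunits (circles, filled where adjusted p was under 0.05) of complexes III, IV and V, with a line at the median of the nuclear-encoded ones. All nuclear-encoded subunits lie above -0.86 or at it, and all 6 mtDNA-encoded ones at -1.62 or below.

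Assembly factors, the proteins that build these complexes and insert their metal centers, showed 17 lower, 4 higher and 21 not called of 42 genes (median log2 fold change -0.21), against 28.8% lower and 27.7% higher among all genes. The stricter call was met by 3 of the 42 as lower, a share near the 8.75% of all genes. For complex IV, 13 of 27 were lower and 4 higher. TMEM177, which takes part in the making of the MT-CO2 protein, fell from 14.5 ± 3.37 to 3.91 ± 1.86 CPM (log2 fold change -1.89), TIMM21 fell by 1.04 and COX18, the insertase for the same MT-CO2 protein, by 1.01 on the log2 scale. The largest rises were in COA8 (0.43), SURF1 (0.31) and CMC2 (0.27), but no gene of this list was higher with scaling by library size alone. Only 1 was higher without DMSO replicate 2, and 2 were without MPM-1 replicate 1 and also with limma on FPKM. For complex III, 2 of 9 were lower, BCS1L (-0.97), which inserts the Rieske protein, and UQCC3 (-0.46). The number lower for complex III was 6 with scaling by library size alone and 4 with limma on FPKM. Of the 6 factors for complex V, ATPAF1 (-0.38) and TMEM70 (-0.25) were lower, and ATPAF2 (-0.14), OXA1L (-0.13), TMEM242 (0.22) and FMC1 (0.35) were not called. Only 1 was lower without DMSO replicate 2, DMSO replicate 3, MPM-1 replicate 1 or MPM-1 replicate 3, each left out alone. With limma on FPKM, 1 was lower too, and without MPM-1 replicate 1, 1 was higher.

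Of 23 measured genes for the making, processing and stability of mitochondrial RNA, 9 were lower and 4 higher (median log2 fold change -0.14), beside 28.8% and 27.7% of all genes. TRMT10C, a subunit of the enzyme that cuts the 5' ends of mitochondrial tRNAs, fell from 37.2 ± 6.73 to 11.6 ± 6.73 CPM (-1.68). FASTKD3 and FASTKD1, of a family of mitochondrial RNA-binding proteins, had log2 fold changes of -1.45 and -0.94. REXO2, an exonuclease that degrades short RNAs, rose from 46.6 ± 2.83 to 108 ± 2.30 CPM (1.21), SUPV3L1, the helicase of the mitochondrial RNA degradosome, had 0.45, and LRPPRC, which stabilizes mitochondrial mRNAs, had 0.31. With scaling by library size alone, 2 genes of this list were higher, and the number was also 2 with limma on FPKM.

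The nuclear genes whose log2 CPM followed the mean of the 6 genes most closely over the 6 libraries were RHOBTB2, DEPDC1B, MAD2L1, NAT8L and SLC52A3, with Pearson correlations of 0.999, 0.999, 0.999, 0.999 and 0.998. They were picked from 9228 genes with a mean of at least 10 CPM, 190 of which had a correlation above 0.99, and the points share the contrast between 2 treatments. Their log2 fold changes were -2.38, -1.61, -1.49, -0.74 and -0.94, so a close pattern did not go with the same size of fall.

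Because the use of strand in counting is not given, reads of overlapping genes may be shared. Among the nuclear genes of the lists and patterns named above, exons on the same strand overlap another annotated gene in ATP5MF (PTCD1 among others), COX8A, UQCR11, COA8, CMC2, REXO2, TMEM70, ATPAF2 and FMC1 (LUC7L2 among others). Exons on the other strand overlap one in COX4I1 (EMC8), BCS1L (ZNF142), UQCC3 (LBHD1), SURF1 (SURF2), CMC2 (CENPN), ATPAF1 (TEX38), ATPAF2 (DRC3), OXA1L, FASTKD3 (MTRR), MAD2L1 and RHOBTB2 (TNFRSF10B among others).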

How the data were processed

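Total RNA of the 6 libraries was prepared with an mRNA library kit. Whole-number counts per gene and library were deposited by the authors without normalization, beside FPKM values scaled by the authors for gene length and library size. The deposited log2 fold change and adjusted p-value (FDR) of the authors' own comparison were not used. Per the labels, HISAT2 and DESeq2 were named in the submitters' processing notes, as was the build mm10, although the table carries human Ensembl identifiers (12127 genes; 855 others carry none). The counting tool and annotation are not given in the sources used here. Counts from all 6 libraries were fitted with edgeR 4.0.16 (TMM scaling, quasi-likelihood test, no covariates, no filter) in R 4.3.3. Standard errors were taken from the log2 fold change and its F statistic. Alternatives used limma 3.58.1 on log2(FPKM + pseudocount), which understates the change of low genes, and DESeq2 1.42.0. The edgeR fit was tested on simulated data. Gene lists were written from general knowledge, and the members and lists were chosen with earlier results of these data known. Named genes are the 6 members, the 3 largest rises and falls among called genes of each list (lists under 8 genes in full), the 5 closest patterns, and COX4I1 and PTMA, chosen after their values were seen. Mitochondrial rRNAs were listed but are not analysed here. Counting errors cover counting alone, since PCR copies are not independent molecules.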

Additional observations from a re-analysis of the deposited data

How the results depend on the processing

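The 6 log2 fold changes kept their direction and stayed called under all 16 other settings tried, which were other scalings, a filter, DESeq2, the replicate block, each library left out and limma on FPKM. The ranges with 1 library left out were -1.95 to -1.82 for MT-CYB, -2.11 to -2.01 for MT-CO1, -2.71 to -2.49 for MT-CO2, -1.67 to -1.54 for MT-CO3, -1.99 to -1.83 for MT-ATP6 and -1.93 to -1.82 for MT-ATP8. Over all settings the lowest values, -2.81 for MT-CO2 and -1.78 for MT-CO3 among them, came with limma on log2(FPKM + 0.01), where the median of all genes was -0.15. With library size alone that median was -0.18, against -0.026 with TMM, and 34.7% of called genes were higher, against 49.0%. The genes called higher numbered 3596, and 2345, 2358 and 2341 with limma on log2(FPKM + 0.1), (FPKM + 1) and (FPKM + 0.01). With the stricter call, 1136 genes were lower and 725 higher, against 3740 and 3596. With the mtDNA mRNAs as denominator, the log2 ratio of the share of the 6 genes between treatments was -0.16 in place of -2.17. Without 1 library the latter was -2.22 to -2.08. Among the ratios between genes, where leaving out libraries was added after the data were seen, MT-CYB to MT-ATP6 changed sign without DMSO replicate 3 (-0.0078) and without MPM-1 replicate 2 (-0.00025), and MT-CYB to MT-ATP8 without DMSO replicate 1 (0.0014). Their ranges were -0.0078 to 0.052 and -0.022 to 0.0014, and the cause was not tested. The replicate numbers of the 2 treatments share only a number. Deviations from the treatment means correlated by 0.021, 0.11 and -0.074 for replicates 1, 2 and 3, and in the fit with the replicate block 3642 genes were lower and 3475 higher, with a log2 fold change of -2.66 for MT-CO2. In the gene lists, 38 counts of called genes moved by over 1.5 times and 218 did not.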
